A study of Mus musculus with 4 samples.

Results

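Cxcr3, Cxcr6, Cxcr4, Ccr2, Cx3cr1, Ccr9 and Ccr8, 7 genes for receptors that T cells use to enter and hold to inflamed or specialised tissue, were taken by symbol from the 32285 genes of each sample's matrix of UMI counts (unique molecular identifiers, 1 per captured RNA molecule). All 7 were found, and all 7 had enough UMIs to be tested over all T cells. The cells were CD8+ T cells sorted from B16F10 tumours, a transplantable mouse melanoma, in C57BL/6J mice of 6 to 8 weeks, and profiled with droplet 5-prime single-cell RNA sequencing. There were 2 samples from tumours labelled sgScr, taken as the control, and 2 labelled sgArid1a, after Arid1a, which encodes a DNA-binding subunit of the BAF chromatin remodelling complex. Whether tumour or T cells bore the guide is not stated in the labels, nor is it stated that the 2 samples of a group are separate animals; p-values therefore rest on sample-to-sample spread that could be technical.

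Chemokine receptors are seven-pass membrane proteins that couple to Gi proteins and steer cells along gradients of secreted chemokines. CXCR3 reads the interferon-induced chemokines CXCL9 and CXCL10, and CCR2 reads CCL2 and its relatives, which are made at sites of inflammation. CXCR6 reads CXCL16, CX3CR1 reads the membrane-held CX3CL1, CXCR4 reads CXCL12, CCR9 reads CCL25 of the gut and thymus, and CCR8 reads CCL1 and CCL8. In CD8+ T cells CX3CR1 marks effector cells and CXCR6 marks cells that stay in tissue, while CCR8 is best known from regulatory T cells of tumours.

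In GRCm38, 5 of the 7 genes lie on chromosome 9: Cx3cr1 at chr9:119901616-120069879 (minus strand), Ccr8 at chr9:120092114-120094906, Ccr9 at chr9:123678439-123784330, Cxcr6 at chr9:123806475-123811760 and Ccr2 at chr9:124101950-124113557 (all plus strand). Cxcr3 lies at chrX:101731535-101734269 and Cxcr4 at chr1:128588199-128592293, both on the minus strand. Cxcr6 lies within Fyco1 on the opposite strand with no shared exonic base. The span of Cx3cr1 overlaps several genes, among them Csrnp1 of the same strand (2861 UMIs over all T cells), with no shared exonic base. Cx3cr1 shares 78 exonic bases with Gm33858 of the opposite strand, which had 14 UMIs. Ccr9 shares 1932 exonic bases with AC165425.1 of the opposite strand, which had 91 UMIs over all T cells, and 269 with Gm17200 of the same strand, which had 2. Chemokine receptor genes are paralogs of each other, and the handling of reads that match more than 1 gene is not stated, so their values carry that uncertainty.

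RefSeq start-site windows (GRCm38.p6; the 250 bases before the start) were found for all 7 genes. The stretches outside GENCODE exons are shown for Cxcr6 and Ccr8, which rose over all T cells, and for Ccr9 and Cxcr4, which fell most steeply; capitals mark a letter match to 1 of the 5 motifs searched on both strands. The Cxcr6 stretch is chr9:123806227-123806474 (plus strand), that of Ccr8 chr9:120091883-120092113 (plus), that of Ccr9 chr9:123766961-123767168 (plus) and that of Cxcr4 chr1:128592300-128592549 (minus).
Cxcr6: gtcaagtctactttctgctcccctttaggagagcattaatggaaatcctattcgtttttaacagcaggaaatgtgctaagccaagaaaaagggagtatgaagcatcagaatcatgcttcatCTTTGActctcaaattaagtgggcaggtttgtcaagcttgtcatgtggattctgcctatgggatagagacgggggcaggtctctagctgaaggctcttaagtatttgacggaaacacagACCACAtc
Ccr8: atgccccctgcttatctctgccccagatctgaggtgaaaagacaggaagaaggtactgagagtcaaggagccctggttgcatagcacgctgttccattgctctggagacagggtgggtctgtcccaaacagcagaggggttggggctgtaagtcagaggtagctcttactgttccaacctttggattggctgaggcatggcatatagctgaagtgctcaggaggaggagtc
Ccr9: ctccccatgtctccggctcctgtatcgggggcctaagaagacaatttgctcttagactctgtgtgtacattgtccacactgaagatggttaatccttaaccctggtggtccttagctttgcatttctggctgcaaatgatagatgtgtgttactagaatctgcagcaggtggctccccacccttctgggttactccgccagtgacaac
Cxcr4: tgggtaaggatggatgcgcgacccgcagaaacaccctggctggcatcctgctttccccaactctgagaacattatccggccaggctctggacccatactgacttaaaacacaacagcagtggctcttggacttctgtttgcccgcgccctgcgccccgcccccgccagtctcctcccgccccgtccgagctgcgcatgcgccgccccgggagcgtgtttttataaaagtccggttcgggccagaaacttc
The Cxcr6 window held the RUNX letters TGTGGT, read here on the other strand as ACCACA 10 bases before the start, and the TCF/LEF letters CTTTGA 129 bases before it. RUNX letters stood also in the windows of Cxcr3 and Cx3cr1, and 14.0% of 32851 RefSeq windows of the same length held them. TCF/LEF letters were in 13.8% of windows. The T-box letters GGTGTGA, the AP-1 letters TGANTCA and the IRF element (GAAA, any 2 bases, GAAA), found in 3.33, 6.75 and 2.98% of windows, were in none of the 7. These are letter matches only, and no motif overlapped another.

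After filters, 38261 T cells remained: 7636 and 7157 in sgScr and 10695 and 12773 in sgArid1a, with 32201336 to 81460688 UMIs per sample and a median of 2407 (sgArid1a replicate 1) to 4025 UMIs per cell. Before filters, between 294 and 480 barcodes of a sample also occurred in another sample. Arid1a had 85.2 and 93.6 CPM (counts per 1000000 UMIs) in sgScr and 74.1 and 72.6 in sgArid1a (log2 fold change -0.26 ± 0.06 SE, adjusted p = 0.00423). The T cell label held: Cd8a was at 525 to 702 CPM in the 4 samples, whereas Cd4 had 125, Foxp3 338, Lyz2 134 and Csf1r 36 UMIs over all T cells and Siglech had 0. State markers differed between groups: the summed level of 9 naive/central memory genes was 2867 and 2799 CPM in sgScr and 1294 and 1328 in sgArid1a, and that of 9 exhaustion genes 700.2 and 748.9 against 1313 and 1432. The sums for 8 mitotic genes were 404 and 454 against 942 and 928, and for 9 interferon-stimulated genes 230 and 239 against 411 and 418.

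The 7 receptors were held by different T cell states. Cells were clustered without any chemokine receptor gene, and states are named below from other markers, so the levels of the 7 receptors entered neither the clustering nor the marker lists. The levels are a description of 4 samples in 13 clusters, without a test.

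Cxcr3, the receptor for interferon-induced chemokines, was highest in the memory-like cluster 0, at 344 and 364 CPM in sgScr and 330 and 359 in sgArid1a (349 ± 15.7, SD, n = 4). The interferon-stimulated-like cells followed at 286 ± 35.9, then cluster 10 at 239 ± 44.8 and the NK-type receptor-like cells at 216 ± 18.9 CPM, each overlapping the next. No sample of these cells reached the lowest sample of the memory-like cluster. The exhausted-like (60.7 ± 21.3) and mitotic-like cells (54.7 ± 27.5) overlapped each other, and the naive/central memory-like clusters 2 and 1 were lowest at 28.0 ± 8.69 and 16.5 ± 6.11 CPM. The memory-like cells supplied 41.7% of all Cxcr3 UMIs but 14.1% of all UMIs.

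Cxcr6, the receptor for CXCL16, had its peak in the exhausted-like cells: 729 and 731 CPM in sgScr and 763 and 798 in sgArid1a. The next 5 clusters, memory-like, interferon-stimulated-like, mitotic-like, effector-like and the unnamed cluster 10, ran from 390 ± 18.4 down to 288 ± 112 CPM, and each overlapped its neighbour in that order. Early-activated-like cells stood at 165 ± 32.1. The unnamed cluster 3, led by Cd163l1 and Ms4a4c, was lowest at 54.0 ± 7.52. With every cell thinned to 1500 UMIs, 65.4 to 69.5% of exhausted-like cells had a Cxcr6 UMI, against 5.48 to 9.04% in cluster 3; the median depth before thinning was 5206 to 8767 UMIs in the first and 2779 to 5058 in the second.

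Ccr2, the receptor for CCL2, was high in effector-like (102 ± 22.1 CPM, 38 UMIs), cluster 10 (89.8 ± 33.8, 58 UMIs) and memory-like cells (75.7 ± 21.0, 1911 UMIs), which overlapped. It was at 26.0 ± 4.91 in exhausted-like and 0.861 ± 0.689 in the naive/central memory-like cluster 2, where 14 UMIs were counted over 4 samples. The memory-like cells held 50.01% of its UMIs.

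Cx3cr1, the fractalkine receptor, stood apart in the effector-like cells, 147 cells led by Gzma, S1pr5, Klrg1 and Zeb2, at 272 ± 30.9 CPM. No other cluster came near: cluster 10 had 41.1 ± 15.3, exhausted-like 26.7 ± 3.07, mitotic-like 25.7 ± 1.70 and memory-like 20.4 ± 6.24 CPM, and these 4 overlapped in order. In the naive/central memory-like clusters 1 and 2 there were 2 and 3 UMIs in all. Mitotic-like and exhausted-like cells, which are deeper and more numerous, supplied 42.9 and 27.2% of its UMIs.

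Ccr9, the gut and thymus receptor, had 57.9 and 57.0 CPM in sgScr and 49.0 and 50.6 in sgArid1a in cluster 2, whose other leading genes were Itgae, Dtx1 and Igfbp4, and 31.2 ± 7.21 CPM in cluster 1. Heat shock-like cells (28.0 ± 8.39) overlapped cluster 1, and cluster 10 (32.9 ± 43.1, 18 UMIs) overlapped both. Exhausted-like and mitotic-like cells were lowest at 0.80 ± 0.346 and 0.829 ± 0.427 CPM. After thinning, 6.94 to 8.74% of cluster 2 cells had a Ccr9 UMI; in exhausted-like cells 1 cell of 4 samples did. Clusters 2 and 1 together held most of its UMIs, 57.4 and 26.0%.

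Ccr8, the CCL1 receptor, was found mainly in the cells where Ccr9 was lowest. It was at 53.5 ± 8.59 CPM in early-activated-like cells, 28.5 ± 7.53 in exhausted-like and 18.0 ± 0.394 in mitotic-like cells, with no overlap between these neighbours, and at 1.78 ± 0.555 CPM or below in every other cluster but 10. Of the 1320 cells with a Ccr8 UMI, 99.7% had a Cd8a or Cd8b1 UMI and 3.41% had a Cd4 or Foxp3 UMI, against 0.447% of cells without Ccr8. The Ccr8 cells were deeper, with a median of 11455 UMIs against 3389.

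Cxcr4, the CXCL12 receptor, was flat by comparison. It ranged from 3.06 ± 2.14 CPM in exhausted-like to 8.52 ± 1.66 in NK-type receptor-like cells, each neighbour overlapping the next. Heat shock-like cells (22.9 ± 10.2) and cluster 10 (28.1 ± 19.7) were higher. Cluster 10 was also highest for Ccr8 (64.7 ± 21.1 CPM, overlapping the early-activated-like cells); its 321 cells had a median of 1223 UMIs and the highest mitochondrial share of any cluster (median 6.49%), and its sums hold few UMIs.

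**Figure D1:**
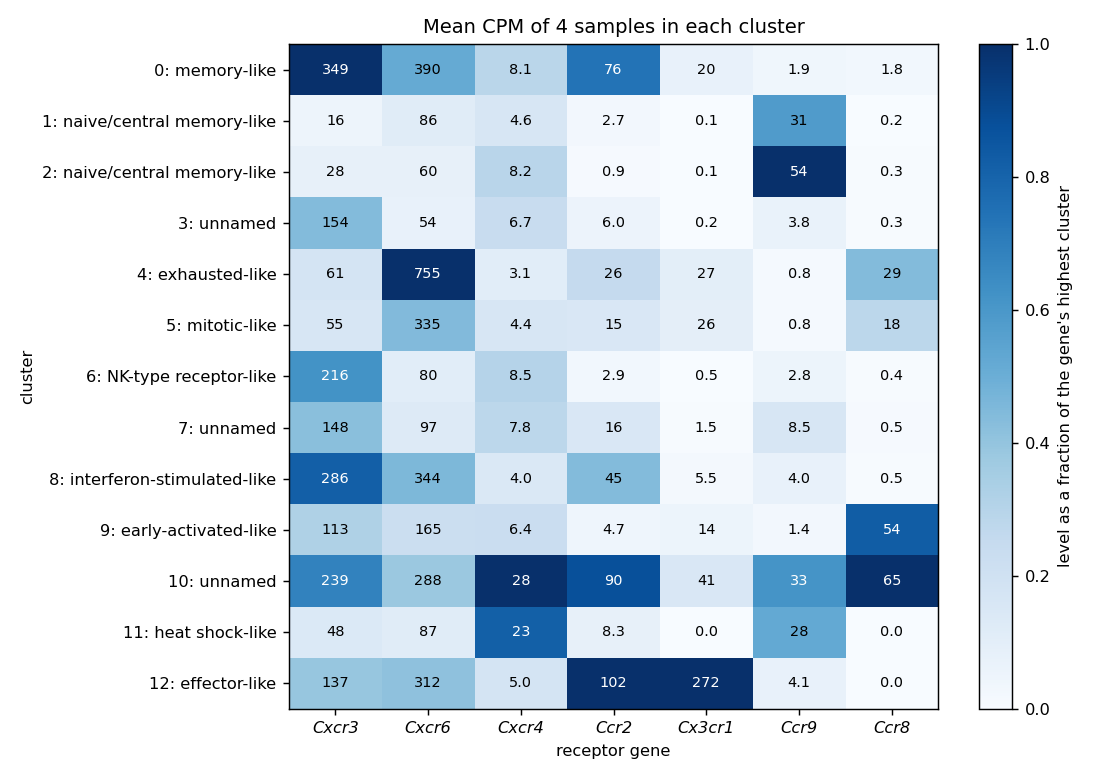
Mean CPM of the 4 samples for each receptor (columns) in each of 13 clusters (rows); shading gives the level as a fraction of that gene's highest cluster, so shades compare clusters within a gene and not genes. Cxcr3 peaks in memory-like cells at 349, Cxcr6 in exhausted-like at 755, Cx3cr1 in effector-like at 272 and Ccr9 in naive/central memory-like cluster 2 at 53.6.

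Summed over all T cells, 3 receptors were higher in sgArid1a, 3 were lower and Cxcr3 did not pass the test. Calls were common among all genes: of 12793 tested, 54.4% were called, 28% higher and 26.4% lower, and in 76.1% the groups did not overlap. In these sums fewer cells of a state and less RNA per cell cannot be told apart.

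Ccr9 differed most. It was at 20.4 and 19.9 CPM in sgScr and 4.66 and 4.97 in sgArid1a, so both sgArid1a samples lay far below either control (log2 fold change -2.04 ± 0.09, adjusted p = 3.74e-09). Cxcr4 fell as well, from 7.13 and 8.11 to 4.40 and 4.48 CPM (-0.75 ± 0.11, adjusted p = 7.66e-05). Ccr2 fell from 24.4 and 24.1 to 18.2 and 17.9 CPM (-0.40 ± 0.07, adjusted p = 0.000391).

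Cxcr6, the tissue-residence receptor, rose from 225 and 228 CPM to 323 and 343 (0.58 ± 0.06, adjusted p = 3.8e-06). Ccr8 rose from 8.56 and 8.79 to 11.7 and 13.1 (0.55 ± 0.09, adjusted p = 0.000129), and Cx3cr1 from 11.4 and 11.6 to 16.8 and 15.6 (0.52 ± 0.09, adjusted p = 0.000214). In all 6 called receptors every sgArid1a sample lay on 1 side of every sgScr sample. Cxcr3 was at 114 and 122 CPM against 117 and 121, and the groups overlapped (0.04 ± 0.06, adjusted p = 0.611).

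Markers of other cell types also moved: the sum of 9 macrophage and monocyte genes was 114 to 116 CPM in sgScr and 159 to 165 in sgArid1a, that of 7 dendritic cell and MHC class II genes 45.0 to 57.2 against 109.3 to 109.5 (Siglech at 0), and that of 5 CD4 and regulatory T cell genes 75.7 to 89.5 against 136 to 147. Most of the last sum came from genes other than Cd4 and Foxp3. Over the 4 samples Cd4 was at 0.196 to 0.838 CPM and Foxp3 at 1.01 to 1.99. Cd4 was not called (0.60 ± 0.42, edgeR adjusted p = 0.246). Whether the other genes of that sum rose in CD8+ T cells or in another cell type was not tested. Of cells with a UMI of the 7 receptors, 96.7 to 99.7% also had a Cd8a or Cd8b1 UMI. A UMI of Lyz2, Csf1r or C1qa was in 0.184 to 1.21% of them. In cells without a UMI of the same receptor these shares were 93.0 to 94.9% and 0.137 to 0.358%. The second share was 1.21 against 0.319% for Ccr8 and 0.184 against 0.358% for Ccr9. Cells with a receptor UMI were deeper for every receptor but Ccr9. The part of other cell types in the group differences was not tested.

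**Figure D2:**
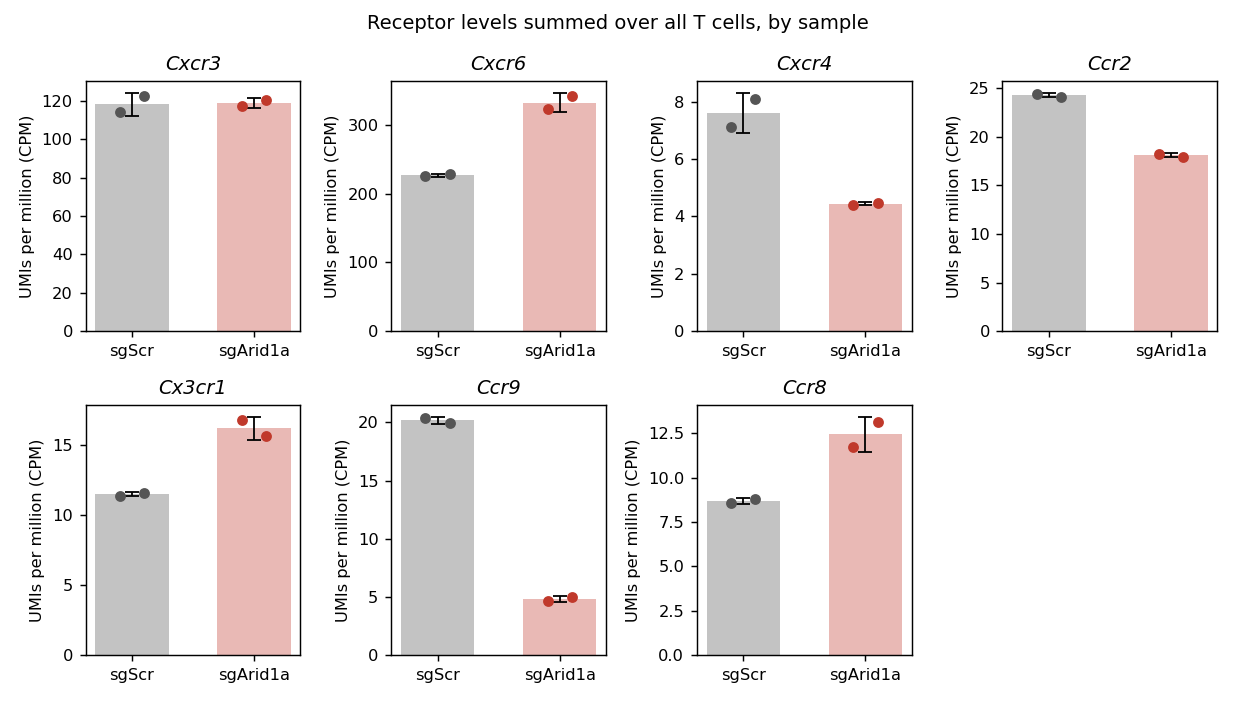
CPM of each receptor summed over all T cells (vertical axes, each from 0); bars are group means, error bars the SD of 2 samples and points the samples. Ccr9 falls from 20.4 and 19.9 to 4.66 and 4.97, Cxcr6 rises from 225 and 228 to 323 and 343, and the Cxcr3 points of the groups overlap.

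Some of these calls changed with the cells kept or with their depth, and the cause was not tested. Cxcr3 became higher in sgArid1a without the mitotic-like cells (0.37, adjusted p = 0.000263), without cells of the antigen receptor beta segments Trbv13-1 and Trbv20 (0.35, adjusted p = 0.000261) and with every cell thinned to 1500 UMIs (0.47, adjusted p = 0.000176), while at least 1000 genes per cell and at most 5% mitochondrial UMIs gave -0.17. The Ccr2 difference was -0.21 without the Trbv13-1 and Trbv20 cells (adjusted p = 0.0508) and -0.04 after thinning (adjusted p = 0.774), and the Cx3cr1 difference was -0.0047 after thinning (adjusted p = 0.981). Without the Trbv13-1 and Trbv20 cells Cxcr6 was at 0.35 (adjusted p = 0.000297) and Cx3cr1 at 0.27 (adjusted p = 0.028), and without mitotic-like cells Ccr2 was at -0.20 (adjusted p = 0.0468), all 3 still called.

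In sgArid1a, cells with these beta segments had less Cxcr3 and more Cxcr6 than the rest, without a test; Trbv13-1 was read in 458 and 437 sgScr and 1031 and 1350 sgArid1a cells. The Trbv13-1 cells of sgArid1a had 54.4 and 58.6 CPM of Cxcr3 against 135 and 137 in cells of other segments, and 435 and 443 CPM of Cxcr6 against 299 and 314. In sgScr the Cxcr3 levels of Trbv13-1 cells, 114 and 125 CPM, were close to those of other segments, 119 and 128. Cxcr6 was higher in the Trbv13-1 cells of sgScr too, at 317 and 290 CPM against 231 and 238. Trbv20 cells of sgArid1a had 37.2 and 50.04 CPM of Cxcr3 and 494 and 529 of Cxcr6, and those of sgScr 109 and 132 of Cxcr3 and 129 and 124 of Cxcr6.

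Within clusters the picture differed from the sums. Each sample had 50 cells or more in 11 clusters, in which 52 pairs of receptor and cluster could be tested. Of these, 10 were called: 3 higher and 7 lower in sgArid1a. Calls were rarer here among all genes too: edgeR called 0 to 10.5% of genes in a cluster, against 54.4% over all T cells. Ccr9, which differed most over all T cells, was called in 0 of 5 clusters by edgeR. In these clusters edgeR called 0.388 to 4.37% of all genes, so a lack of calls is not particular to Ccr9. At an unadjusted p under 0.05 there was 1 of 5, in the memory-like cells (1.10 ± 0.50), where 19.2% of all genes had such a p. In cluster 2 the Ccr9 difference was -0.15 ± 0.10 (adjusted p = 0.521) and in cluster 1 -0.24 ± 0.15 (adjusted p = 0.451).

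In the memory-like cluster 0, where 4.37% of 10068 genes were called and 1.37% were lower, Ccr2 was at 97.8 and 89.2 CPM in sgScr and 61.0 and 54.7 in sgArid1a (-0.64 ± 0.09, adjusted p = 3.3e-05). Cx3cr1 fell in the same cells from 25.7 and 25.8 to 15.9 and 14.2 CPM (-0.73 ± 0.14, adjusted p = 0.00121), opposite to its direction over all T cells. Cxcr3 and Cxcr6, both abundant there, were not called (0.03 ± 0.08 and -0.01 ± 0.08).

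In the exhausted-like cluster 4, where 10.5% of genes were called and 4.76% were lower, 3 receptors fell. Cxcr3 went from 74.4 and 83.1 to 39.6 and 45.5 CPM (-0.82 ± 0.11, adjusted p = 1.02e-05) and Ccr8 from 34.7 and 35.3 to 21.3 and 22.7 (-0.61 ± 0.13, adjusted p = 0.00363). Cxcr4, with 10 to 20 UMIs per sample, went from 3.07 and 6.09 to 1.69 and 1.40 CPM (-1.55 ± 0.42, adjusted p = 0.0172); without sgScr replicate 2 it was -0.98 (adjusted p = 0.504), without sgArid1a replicate 1 the adjusted p was 0.056 and without sgArid1a replicate 2 it was 0.157. Cxcr6, which peaked in these cells, was not called (0.15 ± 0.07, adjusted p = 0.199).

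In the mitotic-like cluster 5, where 5.57% of genes were called and 2.56% were lower, Cxcr3 fell from 54.9 and 93.2 to 31.0 and 39.7 CPM (-0.96 ± 0.16, adjusted p = 0.00106) and Ccr2 from 18.6 and 20.6 to 9.71 and 12.2 (-0.73 ± 0.16, adjusted p = 0.00999). Without sgScr replicate 2 the Cxcr3 difference was -0.56 (adjusted p = 0.00551). Ccr8 and Cx3cr1 were not called there (0.03 ± 0.14 and -0.03 ± 0.13).

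Cxcr3 went the other way in the naive/central memory-like cells. In cluster 1, where 3.12% of genes were called and 2.2% were higher, it was at 11.0 and 11.5 CPM in sgScr and 20.8 and 22.6 in sgArid1a (1.03 ± 0.19, adjusted p = 0.00068). In cluster 2, where 0.825% were called and 0.639% were higher, it rose from 24.0 and 17.9 to 37.0 and 33.2 CPM (0.76 ± 0.17, adjusted p = 0.0385), a call lost without sgScr replicate 1 (adjusted p = 0.666), sgScr replicate 2 (0.766) or sgArid1a replicate 2 (0.062). Cxcr6 rose in cluster 3, where 4.28% were called and 2.89% were higher, from 47.0 and 47.9 to 60.2 and 60.7 CPM (0.38 ± 0.12, adjusted p = 0.0389), a call lost without sgScr replicate 1 (0.369) or replicate 2 (0.347) and without cells of 2 or more Trbv segments (0.131), with fold changes of 0.39, 0.38 and 0.34.

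No receptor was called in the unnamed cluster 7, the NK-type receptor-like cluster 6, the interferon-stimulated-like cluster 8, the early-activated-like cluster 9 or cluster 10, where edgeR called 0.388, 3.75, 0, 4.34 and 9.66% of genes. At an unadjusted p under 0.05 there were 7 of 19 receptor tests in these clusters, 3 of them in cluster 8; of all genes the share was 10.2% in cluster 7, 16.6% in 6, 8.48% in 8, 17.8% in 9 and 24.7% in 10. In the interferon-stimulated-like cells the largest receptor differences were those of Ccr2 (-0.77 ± 0.27, adjusted p = 0.464) and Cxcr6 (-0.46 ± 0.12, adjusted p = 0.265). In the early-activated-like cells Ccr8 was at 61.6 and 59.7 CPM against 43.5 and 49.4 (-0.30 ± 0.16, adjusted p = 0.334).

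**Figure D3:**
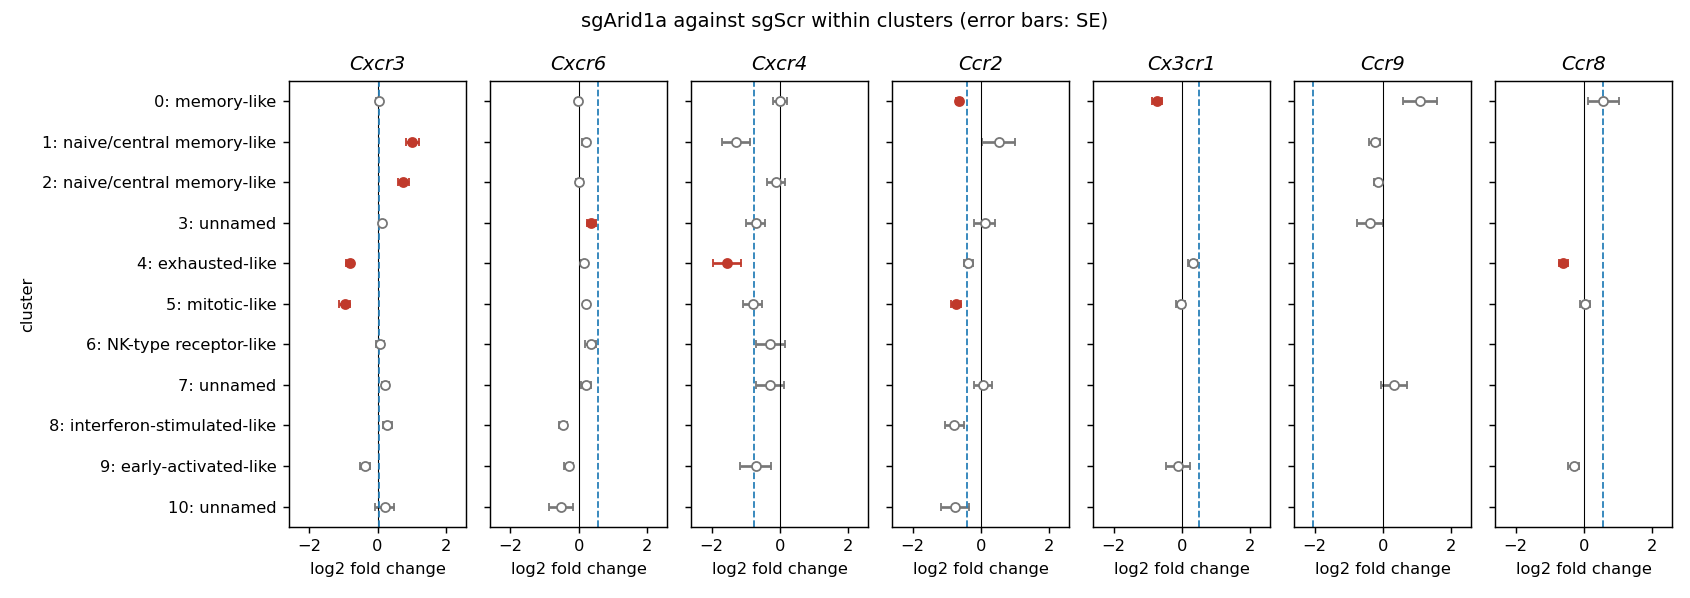
Log2 fold change of sgArid1a against sgScr (horizontal axes) with its SE for each receptor in each tested cluster (rows); filled red points passed an adjusted p of 0.05 and the blue dashed line is the value over all T cells. Cxcr3 has filled points on both sides of 0. Ccr9, with its dashed line at -2.04, has none in 5 clusters where 0.388 to 4.37% of all genes were called.

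Whether the group difference varied between clusters was tested directly, with terms for group by cluster and the sample as a block. It varied for Cxcr3 (adjusted p = 9.22e-13), Cxcr6 (adjusted p = 0.00014) and Cx3cr1 (adjusted p = 0.0274), against 9.41% of 11598 genes. It was not called for Cxcr4 (adjusted p = 0.211), Ccr2 (0.188), Ccr9 (0.136) or Ccr8 (0.213).

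To set the sums and the clusters side by side, the cluster levels of each sample were averaged with 1 common weight per cluster, the mean share of UMIs over the 4 samples. Ratios here are log2 of group means with 1 CPM added, without a test. The Ccr9 ratio went from -1.86 in the sums to -0.26 with the common mix, and that of Cxcr6 from 0.55 to 0.04. Cx3cr1 went from 0.46 to -0.14 and Ccr8 from 0.47 to -0.30, so both changed sign. Ccr2 moved from -0.41 to -0.58, Cxcr4 from -0.66 to -0.44 and Cxcr3 from 0.01 to -0.12; the median over all genes tested was -0.04 in the sums and -0.08 in the mix.

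**Figure D4:**
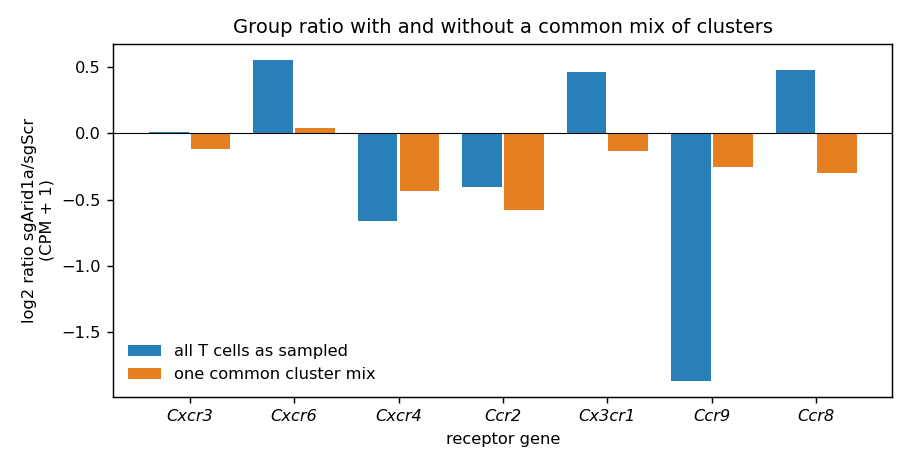
Log2 ratio of sgArid1a to sgScr group means (vertical axis, 1 CPM added) for the 7 receptors, in all T cells as sampled (blue) and with 1 common mix of the 11 tested clusters (orange); there are no error bars because no test was run. The Ccr9 bar shrinks from -1.86 to -0.26 and the Cx3cr1 and Ccr8 bars change sign.

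Counted by cell, after thinning to 1500 UMIs, a Cxcr6 UMI was seen in 19.6 and 20.2% of sgScr and 27.3 and 28.6% of sgArid1a cells. Ccr9 was seen in 3.69 and 3.54% against 0.997 and 1.33%, Cxcr4 in 1.20 and 1.33% against 0.65 and 0.74%, and Ccr8 in 0.59 and 0.62% against 0.97 and 1.07%. These shares followed the CPM in direction. Ccr2 and Cx3cr1 shares overlapped between groups. The Cxcr3 share was 14.3 and 14.8% against 19.3 and 20.4%, the direction of the sums over thinned cells (0.47) but not of the unthinned CPM, whose groups overlapped, and no order is read from it. Thinning left out 191 and 235 sgScr and 1767 and 331 sgArid1a cells, and with 2 samples against 2 the exact permutation p cannot go below 0.333.

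At this depth most cells showed none of the 7 receptors: 64.9 and 63.9% of sgScr and 55.8 and 53.8% of sgArid1a cells. Cxcr6 was seen in 32.4 and 32.9% of sgScr cells with a Cxcr3 UMI and in 17.5 and 18.0% of those without. In sgArid1a the corresponding values were 28.2 and 30.6% against 27.0 and 28.0%, so the gap between cells with and without Cxcr3 was smaller in both sgArid1a samples, a difference that was not tested. Ccr9 was rare in Cxcr3 cells, at 0.0978 to 0.563% against 1.17 to 4.22% in cells without Cxcr3. No thinned cell of any sample held both Cx3cr1 and Ccr9.

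Across the 44 profiles of 11 clusters in 4 samples, each receptor had its own closest companions among 5462 genes; profiles of 1 sample share a library, so these correlations are descriptions. Ccr8 was most like Nrn1 (r = 0.97), the OX40 gene Tnfrsf4 (0.95) and Tox (0.94), a regulator of exhaustion. Cxcr6 was most like Id2 (0.91), Cish (0.90) and Ctsd (0.89), and Cxcr3 like Samd3 (0.90), St3gal6 (0.87) and Ctsw (0.86). The genes most like Ccr2 included Atp2b4 (0.91) and Pstpip1 (0.87). Cx3cr1 was most like Zdhhc2, Ap1s2 and H1f0 (each 0.93), in profiles that leave out the effector-like cells, and Ccr9 like Usp28 (0.91), Rab3ip (0.87) and Slc49a4 (0.86). Cxcr4 had the weakest likenesses, to Rabgap1 (0.80), Mettl17 and Zfp146 (each 0.77). Among the receptors, Cxcr6 and Cx3cr1 were most alike (0.87), followed by Cx3cr1 and Ccr8 (0.82).

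The other members of the pathway showed calls in both directions. Of 17 other chemokine receptors 9 could be tested, 4 were higher and 3 lower in sgArid1a, with a median log2 fold change of 0.01 against -0.02 for all genes, of which 28% were higher and 26.4% lower. Among them Ccr7, the receptor for lymph node entry (-1.23), and the follicle receptor Cxcr5 (-0.58) fell, and Ccrl2 (1.44), an atypical receptor, and Ccr6 (0.88) rose. The calls of Ccr10 (0.79, 129 UMIs) and Cxcr1 (-1.83, 79 UMIs) rest on low counts. Ccr10 went from 0.393 and 0.559 CPM in sgScr to 0.891 and 0.761 in sgArid1a, and Cxcr1 from 0.842 and 0.714 to 0.229 and 0.209. Of 12 ligands of the 7 receptors, 11 were matched and 4 tested. Ccl1, the CCR8 ligand, rose from 39.6 and 17.2 to 150 and 121 CPM (2.27). Cxcl10, a CXCR3 ligand, rose from 3.06 and 1.93 to 7.23 and 6.05 CPM (1.41). The call of Cxcl16, the CXCR6 ligand, rests on 57 UMIs over all T cells. It was at 0.140 and 0.186 CPM in sgScr and 0.407 and 0.368 in sgArid1a (1.24, edgeR adjusted p = 0.0304). Ccl25, the CCR9 ligand, was not called.

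Of 25 genes of receptor signalling 24 were tested, 6 were higher and 7 lower, with a median of -0.03; these calls are near the share of all genes called, 54.4%. The G protein subunits Gng2 (0.55), Gnb2 (0.31) and Gnb1 (0.31) and the small GTPases Rap1a (0.47), Cdc42 (0.30) and Rac2 (0.21) rose. The arrestin gene Arrb1 (-0.77), the phospholipase gene Plcb2 (-0.59), the receptor kinase gene Grk6 (-0.50), the PI3-kinase subunit gene Pik3r5 (-0.47), the Rap effector gene Rassf5 (-0.38) and the Rac activators Dock2 (-0.37) and Elmo1 (-0.26) fell.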

How the data were processed

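The deposited files hold raw UMI counts per gene and barcode; Cell Ranger 6.0.1 made them per the file headers, but the submitters' processing notes name version 3.0.2 of it (also Seurat and mm10), which was not settled. Of the IDs 32158 of 32285 matched GENCODE M21. Of 39473 barcodes, the 38316 with 500 genes or more and no more than 10% of UMIs from mitochondrial genes entered, less cluster 13, whose 55 cells had B cell and MHC class II transcripts. No doublet caller was used, and whether doublets had been taken out is not stated; cells with 2 or more Trbv segments (11.1, 10.6, 6.74 and 13.2% of the samples) were left out as an alternative.

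Counts were scaled to 10000, and 2000 variable genes without chemokine and antigen receptor genes, 30 principal components and 15 neighbours gave Leiden clusters at resolution 0.8 (scanpy 1.11.5, leidenalg 0.10.2). A cluster was named where at least 3 markers and most of a list were raised and a marker stood among its top 10 genes; names are rebuilt. UMIs summed per sample were tested with edgeR 4.0.16 (TMM, filterByExpr, quasi-likelihood F test, no covariate, Benjamini-Hochberg adjusted p under 0.05 over all genes tested); DESeq2 1.42.0 was an alternative. Fold changes are sgArid1a over sgScr with the SE. Sums with 0 UMIs allow up to 3 UMIs, counting error only. On simulated counts the test recovered most genes changed 2-fold. The called receptor differences over all T cells were smaller than that, except that of Ccr9. Named genes were the 7 receptors, the members of 3 fixed lists and the 3 most alike genes per receptor. The values of 1 gene these rules name are not reported here. Members and lists were chosen with earlier results of these data known. Replicate numbers were not used as pairs in the main test. Deviations of same-numbered samples had r = -0.071, a single correlation that cannot decide whether they were processed together.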

Additional observations from a re-analysis of the deposited data

Results flagged for a closer look

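The difference between sgArid1a and sgScr was not the same in all T cell states for 3 receptors, by the edgeR test of group-by-cluster terms with the sample as a block: Cxcr3 (adjusted p = 9.22e-13), Cxcr6 (adjusted p = 0.00014) and Cx3cr1 (adjusted p = 0.0274). Cxcr3 had 2 clusters higher and 2 lower in sgArid1a. Cxcr6 had 1 cluster higher of 11 tested, and its estimates ran from 0.38 in cluster 3 to -0.52 in cluster 10. Cx3cr1 was lower in the memory-like cells (-0.73) and uncalled in the exhausted-like cells (0.32, adjusted p = 0.151). Without cluster 10, an alternative chosen after seeing the data, the adjusted p-values were 3.85e-12, 2.7e-06 and 0.0163.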

How the results depend on the processing

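Over all T cells, DESeq2, RLE size factors, no low-count filter, the replicate block and leaving out any 1 sample changed no receptor's call; under the replicate block the Cxcr3 difference was 0.04 (adjusted p = 0.676), and 4 receptor-cluster pairs were higher and 8 lower, against 3 and 7. The stricter cell filter gave Cxcr3 -0.17. Without mitotic-like cells Cxcr3 was 0.37; without Trbv13-1 and Trbv20 cells Cxcr3 was 0.35, Ccr2 -0.21, Cxcr6 0.35 and Cx3cr1 0.27; thinned to 1500 UMIs Cxcr3 was 0.47, Ccr2 -0.045 and Cx3cr1 -0.0047, with 2220 genes higher and 1791 lower against 3583 and 3381. With the common cluster mix the ratios were -0.12 (Cxcr3), 0.042 (Cxcr6), -0.44 (Cxcr4), -0.58 (Ccr2), -0.14 (Cx3cr1), -0.26 (Ccr9) and -0.30 (Ccr8). The cause of these changes was not tested. Leaving out 1 sample gave 2 to 3 other receptors higher (4 with all samples), 2 to 4 ligands higher (3) and 0 to 1 lower (0), and 1 to 3 receptor-cluster pairs higher (3) and 7 to 9 lower (7). Without a low-count filter 5 ligands were higher. At resolution 0.4 the highest cluster had 333 CPM of Cxcr3 (349) and 581 of Cxcr6 (755). State names changed there: by the same rule the first cluster was named effector-like (memory-like at 0.8) and the second early-activated-like (exhausted-like), and no separate small effector-like cluster was left for Cx3cr1. Differences in the share of cells, in percentage points, were 3.91 for Cxcr3, 6.41 for Cxcr6, -0.298 for Cxcr4, -1.65 for Ccr9 and 0.209 for Ccr8 at 1000 UMIs, and 6.79 (Cxcr3), 9.85 (Cxcr6), -1.16 (Cxcr4), -0.225 (Ccr2), 2.29 (Cx3cr1), -5.47 (Ccr9) and 1.78 (Ccr8) unthinned. Few UMIs limit Cxcr4, Ccr9 and Ccr8 within clusters, and Ccr2 in the effector-like cells and cluster 10. Across clusters and samples 3 UMIs are worth 0.112 to 118 CPM.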
